A study of Homo sapiens with 48 samples.

Results

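K498A and DE636AA are changes in the ATPase motifs of UPF1, and the 6 libraries of the lines carrying them, taken with control siRNA, were set against the 3 libraries of the wild-type (WT) line with the same siRNA. These 9 libraries, chosen by their labels alone, are 9 of 48 in the series, and the question was whether the altered forms have a dominant effect while the cells keep their own UPF1. The cells were Flp-In 293 T-REx, a derivative of the human embryonic kidney line HEK293 whose genome carries a landing site for a single transgene. Each of the 3 lines stably expressed UPF1 with a CLIP protein tag, either as the WT form, with K498A or with DE636AA. All 9 cultures received 40 nM of a non-targeting siRNA (siNT) and were harvested after 72 h, so endogenous UPF1 was not targeted in any group compared. The same lines with 40 nM siRNA against endogenous UPF1 (siUPF1), a line labelled CLIP, and 4 other mutant lines (R843C, A546H, GA-KH and E797R) served for reference. The sources used here do not say whether a line is 1 clone or a pool, so a property of a line and the effect of its UPF1 form cannot be told apart. The design text calls the triplicates biological replicates.

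UPF1 is the RNA helicase at the centre of nonsense-mediated mRNA decay (NMD), which removes transcripts with premature stop codons and also many normal ones. It binds RNA, hydrolyses ATP to move along it and to be released, and recruits decay factors such as SMG5 and SMG6 after phosphorylation by SMG1. The lysine changed in K498A lies in the motif that holds the phosphates of ATP (Walker A), and the aspartate and glutamate at 636 and 637 lie in the motif that drives hydrolysis (Walker B). A form that still enters decay complexes but cannot complete the ATPase cycle could in principle hold back the normal protein. That is the meaning of a dominant effect here.

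The altered codons are shown in the coding sequence to locate both motifs. They were read 5′ to 3′ on the coding strand from the GENCODE v29 transcript UPF1-201 (GRCh38, 1118 codons), the first from codon 493 to 502 and the second from codon 632 to 641, with the altered codons in capitals.
K498: ccgccaggcacggggAAGacggtgacgtcg
DE636: tccattttaatcGACGAAagcacccaggcc
The capitals spell the lysine codon of the first motif and the adjoining aspartate and glutamate codons of the second. The deposited table holds no alleles, so the changes themselves were not checked in the RNA.

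The 9 libraries held 27.4 to 41.3 M expected counts each (median 30.7 M), within the 21.3 to 47.1 M of all 48. All 7 genes listed as expressed in HEK293 were present in each of the 9, VIM at 524 to 619 CPM (counts per 1 M counts of the scaled library) and KRT8 at 164 to 195 CPM. Markers of other cell types summed to 92.9 to 99.7 CPM in WT, 90.4 to 101 CPM in K498A and 90.7 to 101 CPM in DE636AA. Of these lists 0 of 7 and 0 of 4 were called between the mutants and WT by edgeR or DESeq2, with 1 marker higher at an unadjusted p under 0.05. EPCAM made up most of the sum in each library (82.1 to 94.7 CPM), 4 of the 12 markers passed the filter on low counts, and INS and TYR were at 0. Across genes, the deviation of a library from the siNT mean was ranked against GC content. At the high end 4 of the 24 siNT libraries stood apart with Spearman rho of 0.38 to 0.48. These were the third libraries of K498A, DE636AA, A546H and GA-KH, while the 3 WT libraries lay at -0.20, -0.08 and 0.04. At the low end lay the first R843C library (-0.41), the first GA-KH library (-0.34) and the second CLIP library (-0.33).

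UPF1 itself, counted over transgene and endogenous gene together, was at a like level in the 3 lines. WT held 5188, 5033 and 5639 CPM, K498A 5566, 4821 and 5882 CPM, and DE636AA 4902, 6238 and 5703 CPM. The 3 ranges overlapped. The difference of the mutants from WT was 0.06 ± 0.14 on the log2 scale (SE, 95% interval -0.22 to 0.34, edgeR adjusted p = 0.975). The CLIP line with siNT held 108 ± 4.14 CPM (SD, n = 3), so the WT, K498A and DE636AA lines carried 48.9, 50.2 and 52.0 times as much UPF1 RNA. RNA level says nothing of the amount of protein, which was not measured in these files.

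Very few genes differed from WT while endogenous UPF1 was present. At an adjusted p under 0.05, edgeR's quasi-likelihood test called 10 of 19129 genes (0.0523%), 3 higher (0.0157%) and 7 lower (0.0366%) in the mutants. At an unadjusted p under 0.05 there were 1313 genes, 6.86% of those tested. With the replicate number as a block, edgeR called 41 genes (0.214%), 17 higher and 24 lower, all 10 among them, and DESeq2 called 30. Without the filter on low counts edgeR called 117, 113 of them among the genes tested, and TMBIM1, PDPN, ARSB, NBPF1 and PLCL1 lost their call. The fit to the 9 libraries alone called 2, and 3 genes were called without the third libraries of both mutants, which stood apart by GC content. The difference itself followed GC content across genes, with Spearman rho of 0.27 over 18396 genes. Its part in the result was not tested.

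The same contrast with siRNA against endogenous UPF1, in other libraries of the same lines, called many more genes. K498A and DE636AA with siUPF1 differed from WT with siUPF1 in 3801 genes (19.9%), 1683 higher (8.8%) and 2118 lower (11.1%). UPF1 RNA was not equal there, with means of 4844 CPM in WT, 5965 in K498A and 7218 in DE636AA (0.44 ± 0.14, edgeR adjusted p = 0.0233), while in the CLIP line it went from 108 to 24.2 CPM. Markers of other cell types summed to 76.8 to 85.2 CPM in the mutants and 101 to 113 CPM in WT with siUPF1, with EPCAM called lower. Of the 7 HEK293 genes 3 were called lower and 1 higher, and of 13 reference genes 4 lower and 0 higher. The part of these genes in that contrast was not tested. The median standard error was 0.13 on the log2 scale in both contrasts, while the median size of the difference was 0.098 with siNT and 0.189 with siUPF1. The interaction, which tests whether the difference from WT depends on the siRNA, called 1243 genes (6.5%), 530 higher (2.77%) and 713 lower (3.73%). Each line on its own gave few genes with siNT, both against the same WT libraries. K498A differed in 6 (0.0314%), namely CEBPE, PCDH19, SLC7A11, NPAS4, CSF3R and CTC-487M23.5. DE636AA differed in 5 (0.0261%), namely CEBPE, CTSZ, SLC7A11, NPAS4 and TENM1, and in 16 (0.0836%) with the replicate block. DE636AA and K498A differed from each other in 1 gene (0.00523%), LSAMP, a neuronal cell adhesion protein below the level set for naming. LSAMP held 1.41, 1.59 and 1.55 CPM in K498A, 3.51, 3.6 and 3.3 CPM in DE636AA and 2.20, 1.70 and 2.04 CPM in WT, so the mutants lay on either side of WT without overlap. Their difference was 1.19 on the log2 scale (edgeR adjusted p = 0.0015).

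**Figure D1:**
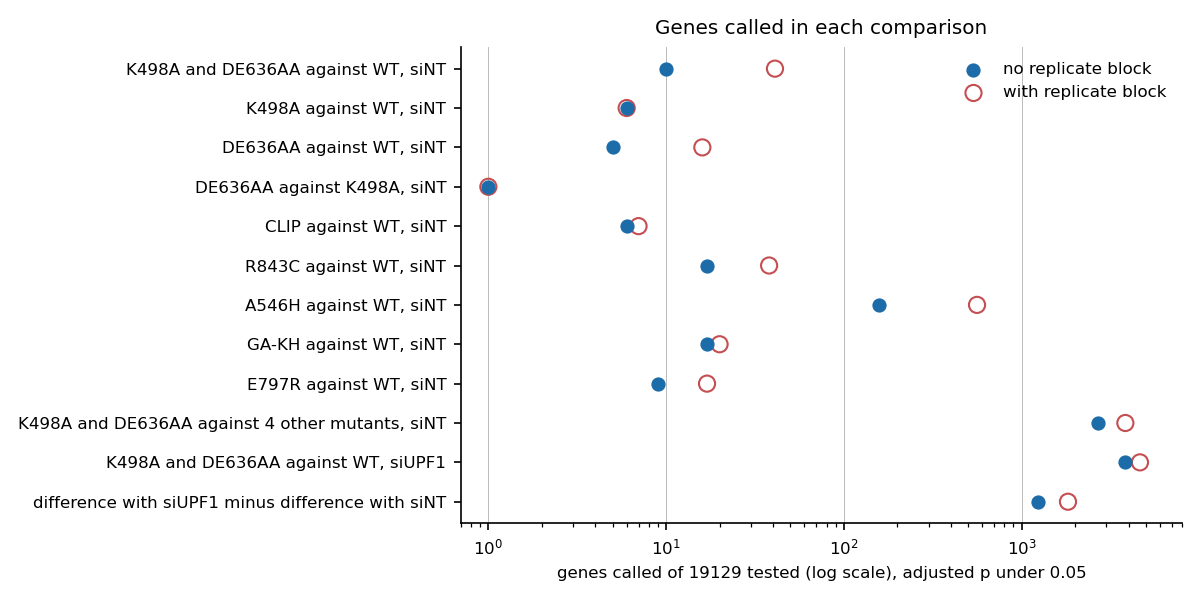
Genes called at an adjusted p under 0.05 in each comparison (x axis, number of genes on a log scale), without (filled) and with (open) the replicate number as a block. The pooled mutants differed from WT in 10 or 41 genes with siNT and in 3801 or 4640 with siUPF1, and the CLIP line differed from WT in 6 or 7 with siNT.

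SLC7A11, the transport subunit of the cystine-glutamate exchanger, had the lowest p among the called genes at 5 CPM or more. WT held 45.2, 44.3 and 48.6 CPM, K498A 25, 30.6 and 26.9 CPM, and DE636AA 28.1, 25.3 and 24.6 CPM. All 6 mutant libraries lay below all 3 WT libraries, and below all 15 libraries of the other lines, whose lowest was at 35.3 CPM. The level fell by 0.78 ± 0.12 on the log2 scale (SE, edgeR adjusted p = 0.000787), with -0.74 in K498A and -0.82 in DE636AA. It was called in each of 9 fits that left out 1 of the 9 libraries, with values from -0.82 to -0.74. With siUPF1 the gap was smaller, WT at 40.2 ± 1.40 CPM against 32.7 ± 4.6 and 33.5 ± 4.81 CPM (SD, n = 3), a difference of -0.28 ± 0.12 with an edgeR adjusted p of 0.11. The change between the siRNAs, 0.50, missed the threshold (adjusted p = 0.08). SLC7A11 overlaps an annotated gene on the opposite strand, as do TMBIM1, PLCL1, TENM1 and LSAMP, and the strand setting of the counting is not given in the sources used here, so reads of the partner genes cannot be told apart.

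CEBPE, a transcription factor of granulocyte development, rose most. WT libraries held 0.0686, 0.154 and 0.136 CPM, K498A 2.30, 3.30 and 3.85 CPM, and DE636AA 2.15, 1.78 and 3.30 CPM. These are 2 to 5 counts per WT library against 49 to 114 per mutant library, and the groups did not overlap. In bulk RNA a low level in all cells and a higher one in few cells cannot be told apart. The log2 difference was 4.47 ± 0.53 (SE, edgeR adjusted p = 5.33e-06), and the gene was called in all 9 fits with 1 library left out. Other lines were high as well: the CLIP, R843C, GA-KH and E797R lines averaged 3.24, 2.56, 3.18 and 1.90 CPM, and only A546H shared the low level of WT, at 0.0721 CPM. With siUPF1 the difference was 4.24 ± 0.53 (edgeR adjusted p = 8.7e-08).

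NPAS4 and CSF3R were called at very low counts. NPAS4, a transcription factor known from active neurons, had 18, 11 and 10 counts in WT, 0, 2 and 0 in K498A and 0 in each DE636AA library (edgeR adjusted p = 0.000258). The 5 other lines averaged 0 to 0.0193 CPM against 0.432 ± 0.161 CPM in WT (SD, n = 3), so WT was the line that stood apart. CSF3R, the receptor of granulocyte colony-stimulating factor, had 11, 28 and 19 counts in WT, 0, 2 and 1 in K498A and 11, 7 and 5 in DE636AA (edgeR adjusted p = 0.00844). The 5 other lines averaged 0.017 to 0.183 CPM against 0.629 CPM in WT. CSF3R lost its call in 3 of the 9 fits with 1 library left out, and NPAS4 in none of them, though it did when only the 9 libraries were fitted.

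TMBIM1 and PDPN were the other genes called higher. TMBIM1, a membrane protein of the BAX inhibitor motif family, held 11.6, 11.5 and 11.9 CPM in WT, 15.9, 13.3 and 15.6 CPM in K498A and 15.5, 17.2 and 16.6 CPM in DE636AA. The log2 difference was 0.42 ± 0.09 (SE, edgeR adjusted p = 0.0466), and all 6 mutant libraries lay above the 18 other siNT libraries, whose highest was 13.2 CPM. With siUPF1 it was larger, 0.77 ± 0.09 (edgeR adjusted p = 1.8e-08), and the gene also rose with UPF1 siRNA in the CLIP line, by 1.05 ± 0.10. PDPN, the membrane glycoprotein podoplanin, held 23.1, 22.3 and 23.9 CPM in WT against 27.3 to 32.8 CPM in the mutants. Its log2 difference was 0.36 ± 0.07 (edgeR adjusted p = 0.0448) with siNT and -0.15 ± 0.07 (adjusted p = 0.15) with siUPF1, and the change between them of -0.51 was itself called (edgeR adjusted p = 0.0011).

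Among the lower genes at 5 CPM or more were ARSB, a lysosomal sulfatase, and NBPF1, a member of a family of near-identical copies whose counts are uncertain. ARSB held 22.1 to 24.6 CPM in WT and 17.5 to 20.5 CPM in the mutants, a log2 difference of -0.32 ± 0.07 (SE, edgeR adjusted p = 0.0463). It was -0.62 ± 0.07 with siUPF1. NBPF1 held 145 to 170 CPM in WT and 115 to 138 CPM in the mutants, a log2 difference of -0.30 ± 0.06 (edgeR adjusted p = 0.0448). It was 0.02 ± 0.06 with siUPF1. PLCL1, a phospholipase C-like protein without catalytic activity (-0.51 ± 0.10), and TENM1, a transmembrane teneurin (-0.87 ± 0.18), completed the 10, each at an edgeR adjusted p of 0.0448. TENM1 was lower mainly in DE636AA, at 2.85, 2.51 and 1.91 CPM against 6.80, 5.58 and 6.11 CPM in WT and 5.39, 4.17 and 4.44 CPM in K498A. TMBIM1, PDPN, ARSB, NBPF1, PLCL1 and TENM1 each kept their call in only 1 or 2 of the 9 fits with 1 library left out, so CEBPE, SLC7A11 and NPAS4 were the genes called in every one.

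**Figure D2:**
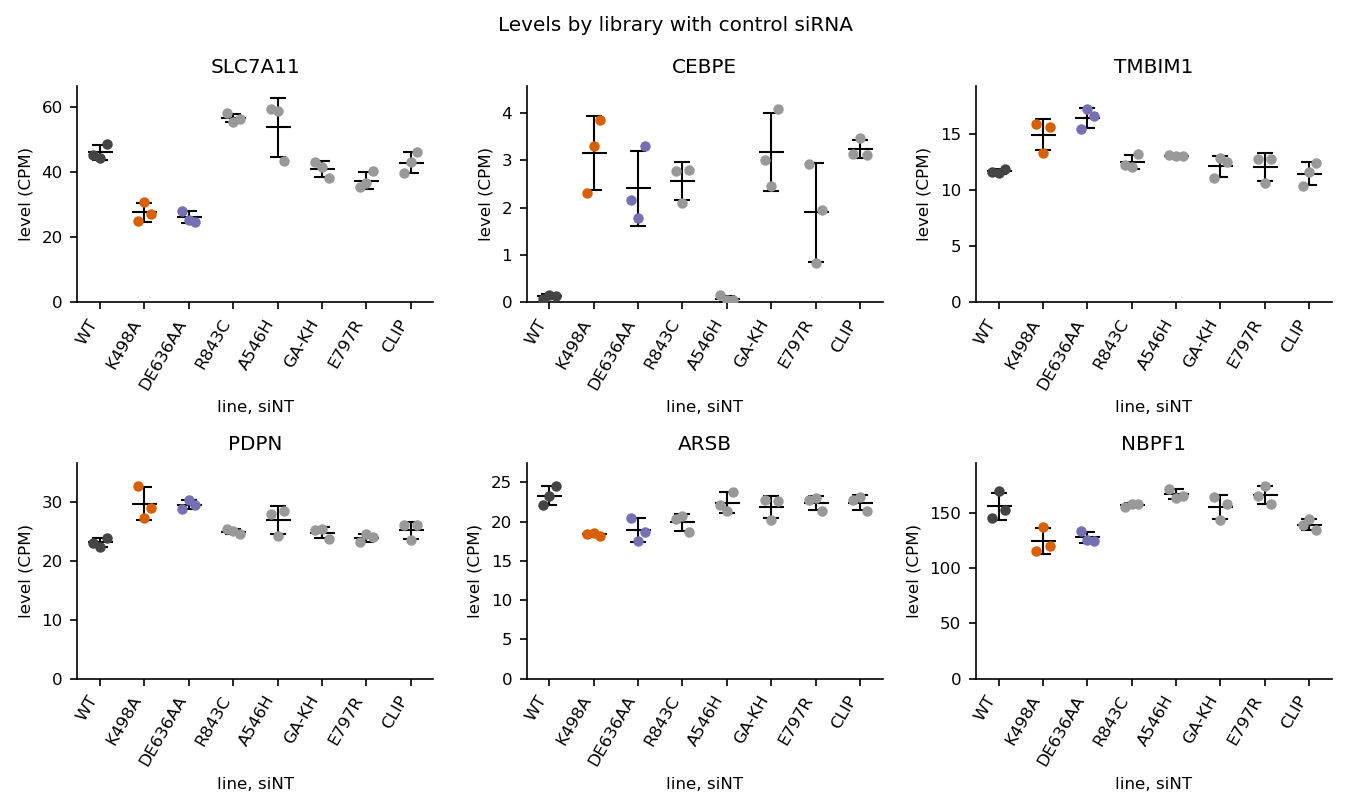
Levels of 6 called genes (y axis, CPM) in the 3 siNT libraries of each of 8 lines (x axis), with the mean and SD in black. SLC7A11 was lower and TMBIM1 higher in all 6 libraries of K498A and DE636AA than in every other library, while CEBPE was near 0 in WT and A546H only.

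Of the 10 called genes, 2 (SLC7A11 and TMBIM1) had all 6 mutant libraries outside the range of the 18 other siNT libraries, against 102 of all 19129 genes (0.533%). The mutant libraries lay on one side of the WT libraries in all 10, which restates the comparison that chose them. Of all genes, 2.1% were so separated upward and 3.34% downward. In the libraries with siUPF1, which are separate from the 9, 5 of the 10 were called in the same direction and 0 in the opposite one. Over the 41 genes called with the block these counts were 21 and 0, and over all 19129 genes 2582 and 1219. Over the 12017 genes averaging 5 CPM or more, the siNT and siUPF1 differences had a Pearson r of 0.252 and a Spearman rho of 0.267. The 2 contrasts share no library but come from the same lines, and the siUPF1 difference had a rho of 0.048 with GC content.

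The 31 genes called only with the replicate block differed by less than 2-fold, apart from ZNF469 at 1.01 ± 0.26 (SE). PNRC1, a proline-rich nuclear protein that binds the decapping machinery, held 65.7 to 77.9 CPM in WT and 81.5 to 101 CPM in the mutants (0.34 ± 0.08 without the block, edgeR adjusted p = 0.00838 with it and 0.108 without). Its 6 mutant libraries lay above the 18 other siNT libraries, which reached 79.5 CPM. BECN1, a core autophagy protein chosen here after its values were seen, held 44.2 to 49.3 CPM in WT and 37.6 to 43.9 CPM in the mutants, below all 18 others (-0.21 ± 0.05, edgeR adjusted p = 0.0418 with the block and 0.186 without). The laminin chain LAMA4 was lower (-0.28 ± 0.06), as was the integrin subunit ITGA8 (-0.29 ± 0.06). With siUPF1 LAMA4 and ITGA8 were at -0.65 ± 0.06 and -0.99 ± 0.06, and the interaction called both (edgeR adjusted p = 0.0053 and 2.3e-06). NIN, a centrosomal protein (-0.38 ± 0.09), KAT2B, a histone acetyltransferase (-0.30 ± 0.09), and TFPI, an inhibitor of coagulation (-0.37 ± 0.12), were also lower, and the lysosomal protease CTSZ (0.45 ± 0.11) and the protocadherin PCDH19 (0.49 ± 0.13) higher. PCDH19 was called in K498A alone (0.75, edgeR adjusted p = 0.0311) and CTSZ in DE636AA alone (0.63, edgeR adjusted p = 0.0216). The direct test between the mutants did not call either.

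Commonly used NMD targets did not rise with siNT. edgeR called 0 of 15, against 0.0523% of all genes, and so did DESeq2, with 1 at an unadjusted p under 0.05 (IFRD1, -0.24 ± 0.08). The median difference was -0.04, against 0.002 over all genes. RP9P, a pseudogene transcript often used as an NMD readout, held 5.83, 6.69 and 6.99 CPM in WT, 7.47, 7.43 and 6.53 CPM in K498A and 7.24, 9.04 and 7.81 CPM in DE636AA, a log2 difference of 0.22 ± 0.13. The ranges of WT and K498A overlapped. GABARAPL1, an autophagy protein, held 42.9 to 45.9 CPM in WT and 40.2 to 49.2 CPM in the mutants (0.03 ± 0.09). BAG1, a co-chaperone, held 46.1 to 54.8 CPM in WT and 38.7 to 53.5 CPM in the mutants (-0.19 ± 0.12), and ERN1, a sensor of unfolded protein in the endoplasmic reticulum, 17.5 to 18.9 and 16.2 to 21.5 CPM (0.00 ± 0.10).

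The size of what these data could miss was limited. For all 15 NMD targets the upper end of the 95% interval lay below a 2-fold rise, the highest at 0.51 on the log2 scale. It also lay below the gene's own rise with siUPF1 in the CLIP line, whose median was 1.00. All 15 were called higher in CLIP, the lowest at 0.57. The list was made with earlier results of these data known, so the second bound may be partly fixed by the choice. These genes did move with siUPF1. With siUPF1, 12 of 15 were called higher in the mutants than in WT (8.8% of all genes were) and 0 lower, with a median of 0.52. GABARAPL1 then held 47.9, 49.2 and 38.1 CPM in WT against 74.6 to 86.8 CPM in the mutants, and RP9P 7.56, 7.77 and 4.06 CPM against 11.2 to 14.3 CPM. The interaction called 8 of 15 higher and 0 lower, beside 2.77% of all genes, including ARC (1.41 ± 0.35), GADD45B (1.21 ± 0.28) and ATF3 (1.02 ± 0.18).

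NMD factors, several of which are NMD targets themselves, held no called member with siNT either. edgeR and DESeq2 called 0 of 11, with 1 at an unadjusted p under 0.05 (SMG6, the endonuclease, 0.23 ± 0.07), and the median was -0.10, or -0.06 without the third libraries of both mutants. SMG5, which recruits deadenylation and decapping factors, held 171 to 191 CPM in WT and 155 to 178 CPM in the mutants (-0.11 ± 0.09). SMG1, the kinase of UPF1, held 379 to 390 CPM in WT and 330 to 404 CPM in the mutants (-0.10 ± 0.07). With siUPF1, 5 of 11 were called higher and 1 lower, against 8.8% and 11.1% of all genes: SMG5 stood at 132 to 164 CPM in WT and 261 to 303 CPM in the mutants (0.90 ± 0.09), SMG1 at 0.50 ± 0.07, and the lower one, UPF3A, at -0.32 ± 0.05. UPF2, which activates the UPF1 helicase, moved from -0.17 ± 0.09 with siNT to 0.50 ± 0.09 with siUPF1, and the interaction called it (0.68 ± 0.12, edgeR adjusted p = 0.000301).

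**Figure D3:**
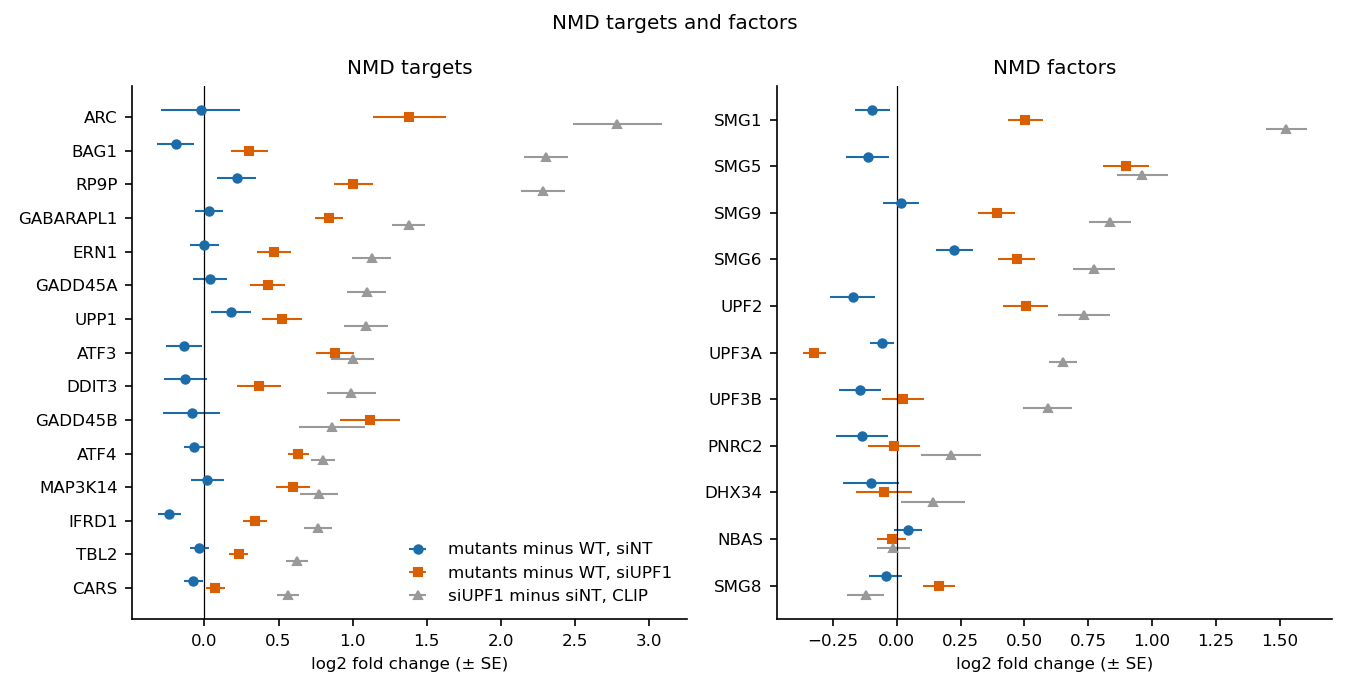
Log2 fold changes ± SE (x axis) of 15 NMD targets and 11 NMD factors (y axis), for the mutants minus WT with siNT (circles), the same with siUPF1 (squares), and siUPF1 minus siNT in the CLIP line (triangles). With siNT 0 targets and 0 factors were called, and with siUPF1 12 targets and 5 factors were called higher.

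Host genes of small nucleolar RNAs, whose spliced transcripts are removed by NMD, were called in 0 of 19 cases with siNT by edgeR and DESeq2, with 0 at an unadjusted p under 0.05. Their median was 0.05, and 0.01 without the third libraries of both mutants. GAS5 differed by 0.03 ± 0.10, ZFAS1 by 0.10 ± 0.17 and SNHG5 by 0.24 ± 0.15. With siUPF1, 7 of 19 were called higher (8.8% of all genes were) and 2 lower (11.1%), among them EPB41L4A-AS1 at 0.79 ± 0.07 and SNHG7 at 0.75 ± 0.11. The mean log2 CPM over the 34 NMD targets and host genes summarises each library. It was 4.93 ± 0.03 in WT, 4.92 ± 0.01 in K498A and 4.95 ± 0.09 in DE636AA (SD, n = 3) with siNT, and 5.00 ± 0.09, 5.36 ± 0.04 and 5.41 ± 0.09 with siUPF1. The CLIP line moved from 4.82 ± 0.05 to 5.78 ± 0.15.

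**Figure D4:**
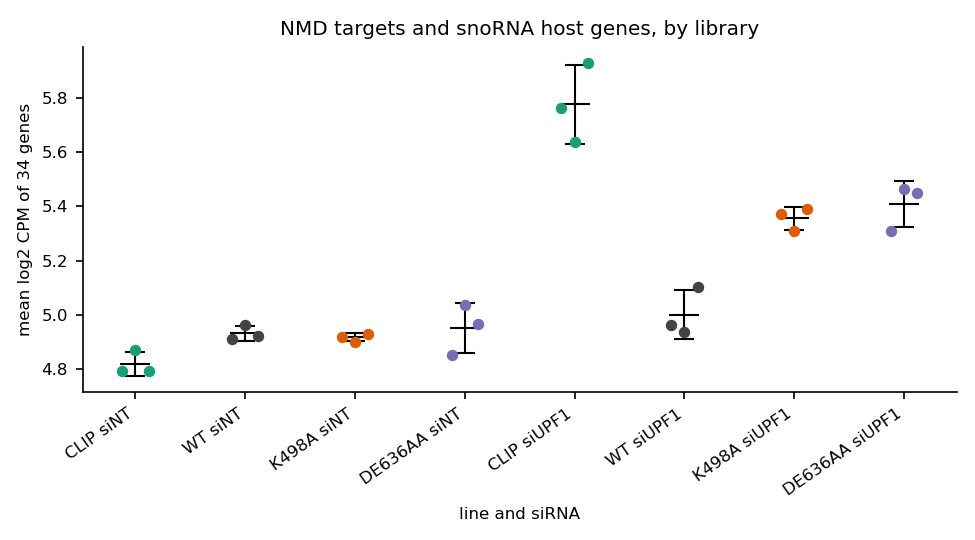
Mean log2 CPM of 34 NMD targets and snoRNA host genes (y axis) in each library of 4 lines with siNT or siUPF1 (x axis), with the mean and SD in black. With siNT the K498A and DE636AA libraries overlap the WT libraries, and with siUPF1 all 6 lie above them.

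Genes that depend on UPF1 were also taken from the CLIP line, without any of the 9 libraries. In it, 1063 genes rose at least 2-fold with siUPF1, of which 3 were called with siNT in the mutants against WT, TMBIM1 higher and NBPF1 and TENM1 lower (background 0.0523%). Their median difference was 0.03, and the upper end of the 95% interval lay below a 2-fold rise in 921 and below the gene's own rise in 1020. A second set holds the 395 genes whose response to siUPF1 in CLIP exceeded the mean response of the GA-KH and E797R lines, which carry another UPF1 form, at least 2-fold upward. edgeR and DESeq2 called 0 of these with siNT, with 12 higher and 15 lower at an unadjusted p under 0.05 and a median of 0.03. The upper end of the 95% interval lay below a 2-fold rise for 372. It lay below the gene's own excess response in CLIP for all 395. Both sets were chosen for a large response in CLIP, so a bound below that response was partly fixed by the choice. Neither had a floor on level in the 9 libraries, so members with few counts there could hardly be called. The highest upper ends were 6.82 on the log2 scale in the first set and 2.19 in the second. The second CLIP library with siUPF1 stood apart (rho of 0.565 with GC content, 0.631% mitochondrial counts). Without it the sets held 725 and 269 genes, their siNT medians were 0.004 and 0.016, and siNT calls were 1 higher (TMBIM1) and 2 lower (NBPF1 and TENM1) in the first and 1 higher (TMBIM1) in the second. With siUPF1, 173 of the 395 were called higher in the mutants (8.8% of all genes were) and 11 lower (11.1%), with a median of 0.38. PPP1R15A, a phosphatase subunit that ends the stress response, was at -0.10 ± 0.15 with siNT and 1.13 ± 0.16 with siUPF1. Of the 1051 genes that fell at least 2-fold in CLIP, 0 were called with siNT by edgeR or DESeq2, with 63 higher and 28 lower at an unadjusted p under 0.05. Of the 182 whose response in CLIP lay at least 2-fold below that of the GA-KH and E797R lines, both tools also called 0, with 10 higher and 14 lower unadjusted.

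**Figure D5:**
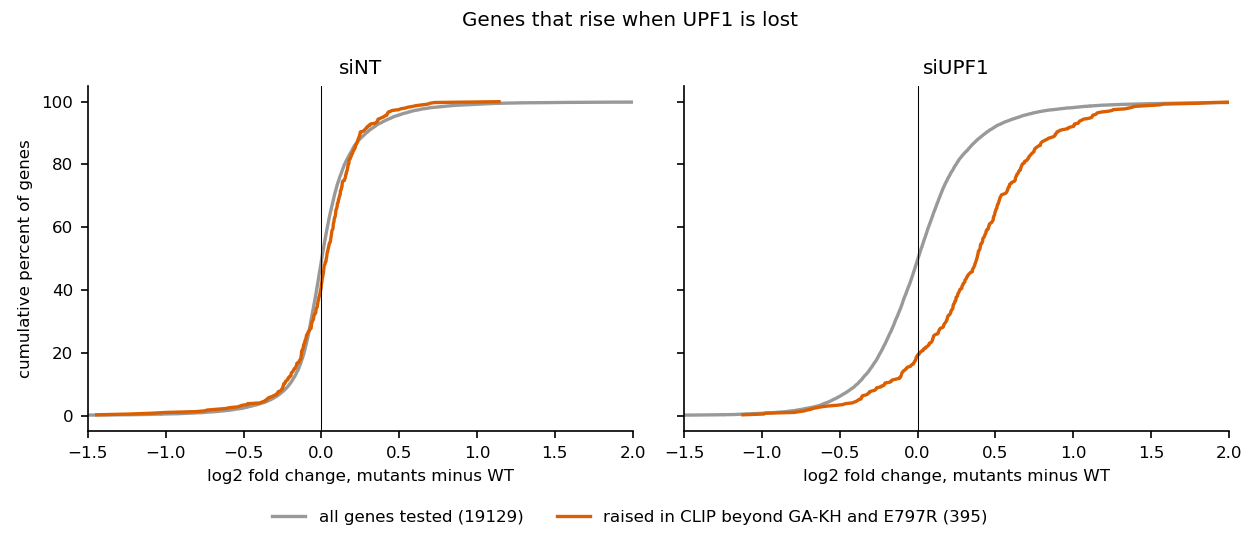
Cumulative percent of genes (y axis) by log2 fold change of the mutants minus WT (x axis), for all 19129 genes tested (grey) and the 395 raised in CLIP beyond the GA-KH and E797R lines (orange), with siNT (left) and siUPF1 (right). The curves lie close together with siNT, with medians of 0.002 and 0.03, and apart with siUPF1, at 0.003 and 0.38.

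Across all 12017 genes at 5 CPM or more, the siNT difference had a Spearman rho of 0.13 with the siUPF1 response of the CLIP line, 0.0677 for K498A and 0.17 for DE636AA. With the response of CLIP beyond that of the GA-KH and E797R lines rho was 0.203, 0.125 for K498A and 0.248 for DE636AA. The siUPF1 difference of the mutants from WT had rho of 0.0559 and 0.2 with these 2 responses, no higher by rho than with siNT. Pearson r was 0.0815 and 0.266 for the siUPF1 difference, against 0.0903 and 0.161 for the siNT difference. By that measure the second relation was higher with siUPF1. For the siNT difference from the 4 other mutant lines rho was -0.0137 and -0.031. The siNT difference and the 2 responses followed GC content, with rho of 0.27, 0.35 and 0.49. Its part in these relations was not tested.

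Targets of ATF4, the transcription factor of the amino acid and stress response, were mostly below WT, with SLC7A11 the 1 that passed the test. edgeR called 1 of 29 lower and 0 higher, against 0.0366% and 0.0157% of all genes. At an unadjusted p under 0.05, 9 were lower, and 25 of 29 were below WT. Over all 19129 genes these counts were 665 and 9418, and the medians were -0.15 in the list and 0.002 over all. Other lists leaned to 1 side as well. HOX genes were below WT in 31 of 37 cases and endoplasmic reticulum chaperones in 14 of 17. Cholesterol synthesis genes were above WT in 16 of 19 and ribosomal protein genes in 67 of 84. SLC3A2, the partner chain of SLC7A11, held 94.0, 98.2 and 96.1 CPM in WT, 74.6, 82.5 and 87.2 CPM in K498A and 80.8, 78.0 and 82.3 CPM in DE636AA (-0.25 ± 0.07, edgeR adjusted p = 0.32). Its 6 mutant libraries lay below all 18 others, which began at 94.0 CPM. CHAC1, which breaks down glutathione, was at -0.52 ± 0.16, SESN2, a leucine sensor, at -0.28 ± 0.11 and WARS, a tRNA synthetase, at -0.25 ± 0.08. GARS, the glycyl-tRNA synthetase, passed only with the block (-0.21 ± 0.06, edgeR adjusted p = 0.021). ATF4 itself differed by -0.07 ± 0.07. Without the third libraries of both mutants the median of the list was -0.20. With siUPF1, 6 of the 29 were called higher and 3 lower, with a median of 0.05, against 8.8% and 11.1% of all genes.

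The other gene groups held no called member with siNT. edgeR and DESeq2 called 0 of 17 endoplasmic reticulum chaperones (median -0.12, 2 lower at an unadjusted p under 0.05), 0 of 37 HOX genes (-0.12, 5 lower), 0 of 16 p53 targets (-0.11, 2 lower), 0 of 26 clustered protocadherins (-0.14, 1 lower) and 0 of 16 selenoprotein genes (-0.04, 1 lower). Both called 0 of 19 cholesterol synthesis genes (0.07, 1 higher), 0 of 24 immediate early and ERK output genes (0.02, 1 higher and 3 lower), 0 of 11 SRF and YAP targets (0.02, 1 lower), 0 of 14 interferon-stimulated genes (0.09, 3 higher and 1 lower) and 0 of 18 proliferation genes (-0.03, 1 higher). The same held for 25 exon junction and decay factors (-0.04, 1 lower), 25 splicing factors with poison exons (-0.04, 1 lower), 59 replication-dependent histones (0.03, 1 higher and 2 lower), 84 ribosomal protein genes (0.06, 1 higher), 16 mitochondrially encoded genes (0.01, 1 higher) and 13 reference genes (0.004, 2 higher). With siUPF1, 12 of the 19 cholesterol synthesis genes were called lower (11.1% of all genes were) with a median of -0.52, and the interaction called 10 of 19 lower, beside 3.73% of all genes. DHCR7, the last enzyme of that pathway, went from 0.05 ± 0.07 to -0.68 ± 0.07. Among immediate early and ERK output genes 11 of 24 were called higher with siUPF1 (8.8% of all genes were) and 7 in the interaction (2.77%), with the transcription factor FOS going from 0.06 ± 0.23 to 1.36 ± 0.24.

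The genes with the largest interaction overlapped between mutants and WT with siNT, apart from ACTA2. EGR1, an immediate early transcription factor, held 8.69 to 16.9 CPM in WT and 7.57 to 17.5 CPM in the mutants with siNT, and 6.44 to 10.0 against 13.6 to 44.5 CPM with siUPF1. The mutants and WT overlapped with siNT and were apart with siUPF1. ACTA2, smooth muscle actin, was lower with siNT in every mutant library, at 18.0 to 21.5 CPM against 22.2 to 27.6 CPM in WT (-0.35 ± 0.13, edgeR adjusted p = 0.58), and higher with siUPF1, at 22.7 to 39.7 against 8.17 to 11.1 CPM. ETV5, an ERK-induced transcription factor, went from -0.39 ± 0.18 to 1.02 ± 0.21. In the other direction MAD2L1, a spindle checkpoint protein, held 95 to 110 CPM in WT and 87.9 to 122 CPM in the mutants with siNT. With siUPF1 it held 95 to 102 CPM in WT and 36.9 to 47.1 CPM in the mutants. TMEM14C, a mitochondrial membrane protein, went from -0.04 ± 0.10 to -1.20 ± 0.10, METTL7A, a methyltransferase-like protein, from -0.06 ± 0.11 to -1.57 ± 0.10, and the secreted protease HTRA1 from 0.15 ± 0.15 to -1.10 ± 0.17.

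More genes differed from the 4 other mutant lines with siNT, a comparison that shares the 6 mutant libraries and sets them against 12 libraries in place of 3. There edgeR called 2708 genes (14.2%), 1521 higher (7.95%) and 1187 lower (6.21%), with a median standard error of 0.092. Without the third libraries of both mutants 1235 genes were called, 596 higher and 639 lower, 1155 of them the same. The list counts without those libraries are to be set beside these smaller totals. SLC7A11 was again lower (-0.79 ± 0.09), with means of 56.5, 53.7, 40.8 and 37.3 CPM in R843C, A546H, GA-KH and E797R. Of the ATF4 targets 11 of 29 were called lower and 1 higher, and 12 lower and 0 higher without the third libraries. CHAC1 (-0.64 ± 0.11), SLC3A2 (-0.42 ± 0.05) and SESN2 (-0.40 ± 0.08) were among them. The mean log2 CPM of the ATF4 targets was 5.61 to 5.87 in R843C and A546H libraries. It was 5.27 to 5.62 in GA-KH and E797R and 5.25 to 5.54 in K498A and DE636AA. The CLIP libraries with siNT lay at 5.31, 5.37 and 5.50, within the range of K498A and DE636AA. The WT libraries lay at 5.49, 5.49 and 5.68, so the low level was not particular to the 2 mutants. ETV5 averaged 17.0 ± 2.3 CPM in K498A and 18.5 ± 2.8 in DE636AA, against 30.9 to 39.8 CPM over the 4 lines (-0.97 ± 0.13) and 23.3 ± 3.6 CPM in WT (SD, n = 3). Of the endoplasmic reticulum chaperones 8 of 17 were called lower, and 3 without the third libraries, CALR at -0.38 ± 0.06.

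Some NMD genes were lower in that comparison. SMG5, UPF2, SMG8 and SMG1 were called lower and 0 of the 11 factors higher, SMG5 at -0.32 ± 0.06. Of 15 NMD targets 4 were called lower, namely BAG1 (-0.42 ± 0.09), IFRD1 (-0.36 ± 0.06), ATF4 and CARS, and 0 higher. Of all genes 6.21% were called lower and 7.95% higher there. Without the third libraries of both mutants the calls of UPF2 (-0.22), SMG1 (-0.16) and CARS (-0.16) were lost. Of the 11 factors 3 were then called lower, among them a factor not called before, and 1 higher. Of the 15 targets 3 were called lower and 0 higher. The reference lines differed among themselves in these genes: SMG1 averaged 501 ± 9.3 CPM in the R843C line, 432 ± 61 CPM in A546H, 391 ± 24 CPM in GA-KH and 340 ± 6.4 CPM in E797R (SD, n = 3), against 349 ± 18 in K498A, 368 ± 31 in DE636AA and 383 ± 6.1 in WT. For BAG1 the means were 60.4 ± 2.8 CPM in R843C, 69.9 ± 9.8 CPM in A546H, 46.2 ± 4.0 CPM in GA-KH and 62.4 ± 3.4 CPM in E797R, against 46.0 ± 6.7 in K498A, 42.1 ± 3.6 in DE636AA and 50.3 ± 4.4 in WT. K498A and DE636AA lay at the low end of the lines with siNT for BAG1, and within their range for SMG1. Against the WT libraries, R843C differed in 17 genes (0.0889%), A546H in 158 (0.826%), GA-KH in 17 (0.0889%), E797R in 9 (0.047%) and CLIP in 6 (0.0314%). With the replicate block these counts were 38, 562, 20, 17 and 7. The comparisons share those 3 libraries.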

How the data were processed

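Total RNA (500 ng, ribosomal RNA removed) of 48 cultures was sequenced as paired ends. The authors deposited RSEM expected counts per gene in 1 table; cutadapt, STAR, RSEM, hg19 and DESeq2 are named in the submitters' processing notes, and versions, annotation release and strand setting are not given in the sources used here. Expected counts were rounded. edgeR 4.0.16 (R 4.3.3, limma 3.58.1) kept 19129 of 57820 genes by filterByExpr, normalised by TMM and fitted the 48 libraries with a term for each group, which gives every comparison the same estimate of the spread. The mean of the K498A and DE636AA terms was compared with WT by the robust quasi-likelihood test, two-sided, with Benjamini-Hochberg adjustment over all genes. Each adjusted p in the text is from this test unless named otherwise. CPM are counts per 1 M of the TMM-scaled library, and intervals are 95% intervals of the fit. The steps were tested on simulated data. DESeq2 1.42.0, another normalisation, no filter, a replicate block, a fit to the 9 libraries and leaving out libraries were alternatives.

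Same-numbered libraries tended to deviate together. Over 12017 genes at 5 CPM or more, the deviations from the group means of the 9 same-numbered pairs correlated at 0.12 to 0.503. Those of 18 pairs with different numbers correlated at -0.462 to 0.349, so the ranges overlapped. Deviations from a mean of 3 libraries sum to 0, so positive values in same-numbered pairs force lower ones in the others. The replicate numbers come from the labels, which give no day or batch, and the pairing comes from this check. The blocked fit stands beside a count over all genes where it moved that count by over 1.5 times.

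Genes were named among those called at a mean of 5 CPM or more with all mutant libraries on one side of WT, up to 12 in each direction, plus up to 4 called members of a list, all NMD factors and 4 NMD targets. CEBPE, NPAS4, CSF3R, TENM1, PLCL1, LSAMP, BECN1, ZNF469 and uncalled members of lists were named after their values were seen. 1 gene is not reported here. Members, lists and sets were chosen with earlier results of these data known. Gene types, GC content and UPF1 codons came from GENCODE v29 (GRCh38), with 18396 tested genes matched by identifier.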

Additional observations from a re-analysis of the deposited data

Results flagged for a closer look

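Results are given here where a difference between the lines or siRNAs was itself tested. Between the 2 mutant lines with siNT, LSAMP was higher in DE636AA than in K498A by 1.19 on the log2 scale, and with siUPF1 the means were 2.94 ± 0.0504 and 0.93 ± 0.226 CPM (SD, n = 3). The change of the mutant difference from WT between the siRNAs passed the edgeR threshold for 1243 genes. Among genes at 5 CPM or more, the change was largest upward for EGR1 (1.94), ACTA2 (1.90), ETV5 (1.41) and ARC (1.41). It was largest downward for METTL7A (-1.51), HTRA1 (-1.25), MAD2L1 (-1.21) and TMEM14C (-1.16). MAD2L1 and TMEM14C responded to siUPF1 by -0.22 ± 0.15 and -0.48 ± 0.12 in the CLIP line (SE). All 8 genes had an edgeR adjusted p above 0.05 with siNT.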

How the results depend on the processing

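The count of genes called between the mutants and WT with siNT, 10, was 117 without the filter on low counts (113 of them among the 19129 genes), 41 with the replicate block, 30 with DESeq2, 2 in the fit to the 9 libraries alone and 3 without the third libraries of both mutants. It ranged from 3 to 10 when 1 library was left out. SLC7A11 and CEBPE were called under all of these. For K498A, 6 became 65 without the filter, 12 with DESeq2, 2 in the 9-library fit and 1 to 6 with 1 library left out. For DE636AA, 5 became 113 without the filter, 16 with the block, 16 with DESeq2 and 1 to 11 with 1 library left out. For DE636AA against K498A, 1 became 64 without the filter, 5 with DESeq2, 0 in the 9-library fit and 0 to 1 with 1 library left out. Against the 4 other mutants, 2708 became 1235 without the third libraries of both mutants, an alternative chosen after seeing the data. Median differences that moved were the NMD factors (from -0.096 to -0.058 without the third libraries), the host genes of small nucleolar RNAs (from 0.052 to 0.012, likewise) and the interferon-stimulated genes (-0.039 to 0.092 with 1 library left out). With 1 library left out, the second CLIP siUPF1 library among them, the medians of the genes lowered in CLIP ranged from 0.033 to 0.089, and of those lowered beyond the GA-KH and E797R lines from -0.057 to 0.012, the highest without that CLIP library. The cause of these shifts was not tested. The other 309 of 316 list and set values stayed within their spread, and no named gene that was called lost its call with the block. With 3 libraries a group, the median standard error of 0.13 limits what single genes can show.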
